A study of Mus musculus with 22 samples.

Results

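The genes described here mark the subfields of the hippocampus. They are Prox1, C1ql2, Dsp and Calb1 for dentate granule cells, Wfs1, Fibcd1 and Pou3f1 for CA1, Iyd and Cpne4 for CA2 and CA3, and Calb2 for mossy cells. They were chosen by symbol, and all 10 were found among the 53379 genes of the deposited count table. The study injected kainate (70 nl, 20 mM) or 0.9% NaCl (sham) above the right hippocampus of adult male C57/BL6N mice, which arrived at 8 weeks of age and were kept for 4 weeks before use. The hippocampus on the other side (CLH) was taken 24 h later, and its nuclei were sorted into a NeuN+ fraction (neurons) and a NeuN- fraction (glia). NeuN is a nuclear protein of mature neurons. There were 8 mice per treatment in 3 pools, of 4, 2 and 2 mice, and in the kainate group the mice had convulsive seizures. This gave 3 libraries of kainate neurons, 3 of sham neurons, 3 of kainate glia and 2 of sham glia, since the preparation of sham glia replicate 2 failed. A replicate is therefore a pool of mice, and the sources do not say which pool is the larger one. The libraries hold RNA of nuclei only, and in sorted fractions fewer nuclei of a type and less RNA per nucleus cannot be told apart.

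The hippocampus is a chain of fields with distinct excitatory neurons. Granule cells of the dentate gyrus send mossy fibers to CA3, CA3 pyramidal cells project to CA1, and mossy cells of the hilus project back to the granule cells, also on the other side of the brain. Each field expresses its own set of transcription factors, calcium-binding proteins and synaptic proteins, which serve as labels of the cells. In epilepsy models, granule cells are known for changes in calbindin and for mossy fiber sprouting, and mossy cells for their loss in the damaged hippocampus.

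Coordinates are on mouse build mm10 (GRCm38), and all 10 genes are protein coding. Among the dentate markers, Prox1 (ENSMUSG00000010175, chr1:190118035-190170714, minus strand) is a homeobox transcription factor that maintains granule cell identity and is also found in some interneurons and in the oligodendrocyte lineage. C1ql2 (ENSMUSG00000036907, chr1:120340582-120343174, plus strand) is a secreted protein of mossy fiber synapses. Dsp (ENSMUSG00000054889, chr13:38151294-38198577, plus strand) is desmoplakin, a protein of desmosomes. Calb1 (ENSMUSG00000028222, chr4:15881264-15908064, plus strand) is calbindin, a calcium buffer of granule cells that part of CA1 and some interneurons also express. Of the CA1 markers, Wfs1 (ENSMUSG00000039474, chr5:36966104-36989205, minus strand) is wolframin, a membrane protein of the endoplasmic reticulum. Fibcd1 (ENSMUSG00000026841, chr2:31813290-31846005, minus strand) is a membrane receptor with a fibrinogen-like domain, and Pou3f1 (ENSMUSG00000090125, chr4:124656807-124660655, plus strand) is a POU-domain transcription factor. Iyd (ENSMUSG00000019762, chr10:3540240-3554877, plus strand) is an iodotyrosine deiodinase, and Cpne4 (ENSMUSG00000032564, chr9:104547286-105034544, plus strand) is a copine that binds membranes in the presence of calcium. Calb2 (ENSMUSG00000003657, chr8:110137502-110168210, minus strand) is calretinin, a calcium-binding protein of mossy cells and of some interneurons.

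Library totals ranged from 12058875 to 45428465 counts. The unit of the levels is CPM, that is, counts divided by the TMM-scaled library total and set to one common total. The sort was visible in its markers. All 5 neuronal markers were higher in NeuN+ nuclei, with Rbfox3, the gene of NeuN, at a log2 fold change of 2.72 ± 0.30 (SE), and all 18 markers of astrocytes, oligodendrocytes, their precursors and microglia were lower. None of these genes was at 0 counts in any library. The libraries of replicate 1 stood apart. In neurons, 9 of the 10 subfield markers were highest in replicate 1 among the sham libraries (all but Dsp), and 9 of 10 among the kainate libraries (all but Prox1), against 37.6% and 34.8% of all genes tested. The median ratio of replicate 1 to the mean of the other replicates was 2.16 in sham and 2.03 in kainate neurons. Sham glia replicate 1 and kainate glia replicate 2 were made from 0.05 ng in place of 1 ng of RNA, with 15 in place of 10 PCR cycles.

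The levels of the 10 genes spanned a wide range. Per kilobase of exon, C1ql2 was the highest in sham neurons, at 125 ± 71.8 CPM per kb (SD, n = 3), and its 3 libraries lay above those of Fibcd1, the next gene, at 34.1 ± 14.0. Then came Wfs1 at 27.1 ± 15.1, Calb1 at 26.9 ± 12.3, Prox1 at 18.5 ± 0.88 and Pou3f1 at 15.1 ± 7.94 CPM per kb. The lowest were Calb2 at 5.72 ± 3.68, Cpne4 at 4.61 ± 2.44, Iyd at 2.74 ± 1.08 and Dsp at 2.24 ± 0.59 CPM per kb. Apart from C1ql2 and Fibcd1, the ranges of neighbors in this order overlapped. Within each library, however, Fibcd1 exceeded Wfs1, Pou3f1 exceeded Calb2, Calb2 exceeded Cpne4 and Cpne4 exceeded Iyd in 3 of 3 cases. In kainate glia, Prox1 had the highest level, at 24.6 ± 7.64 CPM per kb (SD, n = 3), and Pou3f1 the next, at 20.3 ± 6.35.

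**Figure D1:**
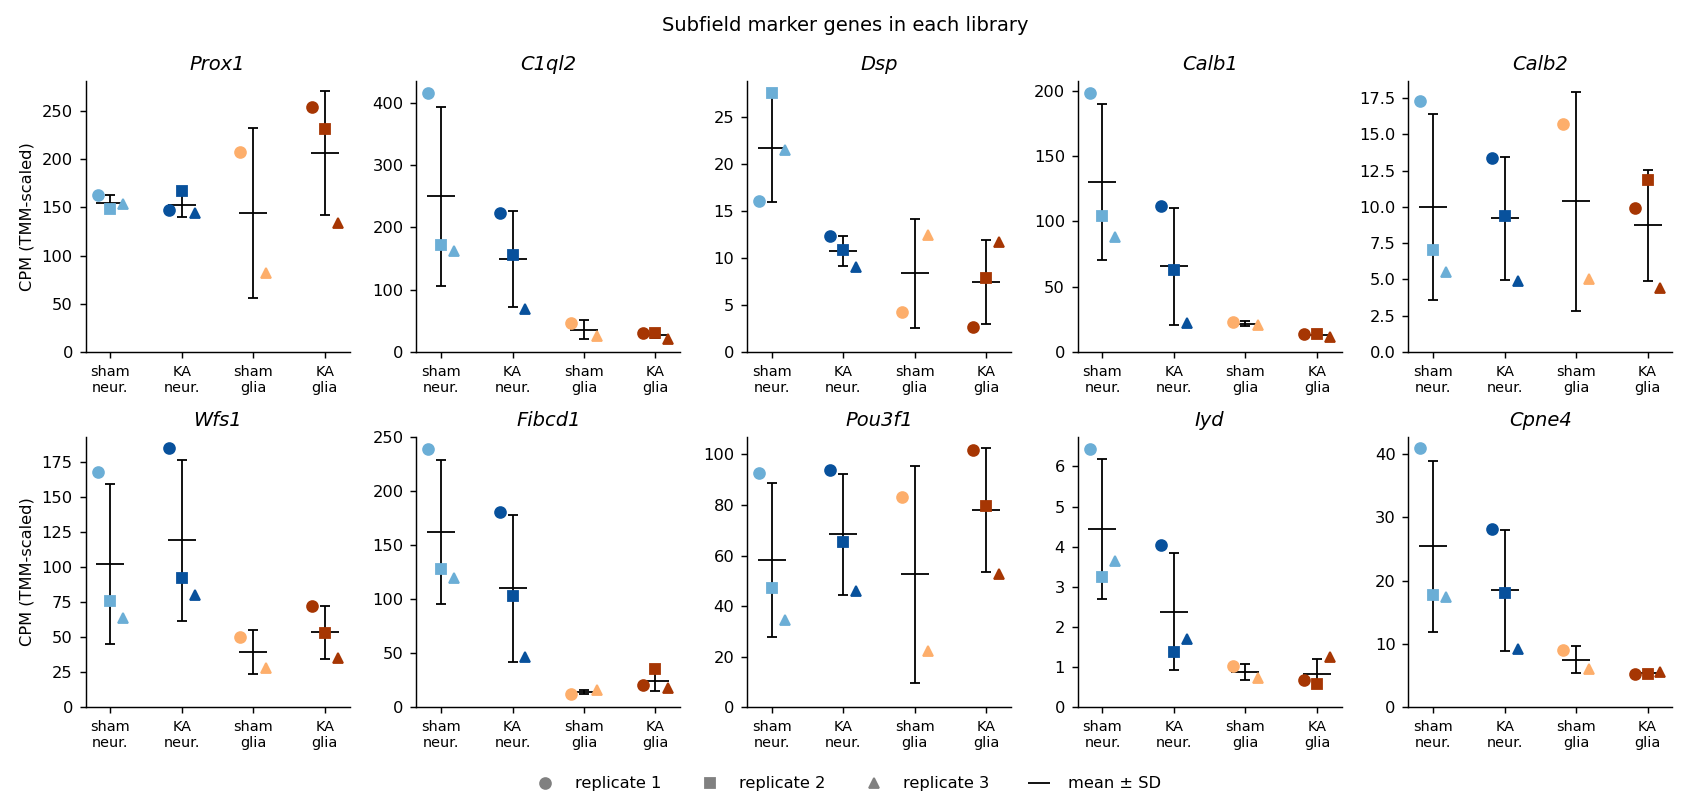
CPM (linear axis, TMM-scaled) of the 10 genes in the 11 libraries, with a symbol for each replicate number and the mean ± SD of each group. Most genes were highest in replicate 1 of each neuronal group, and Dsp in kainate neurons lay between 9.05 and 12.3 CPM, below the 3 sham libraries at 16.05 to 27.5.

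The comparison of NeuN+ with NeuN- nuclei shows in which fraction the markers lay. Over both treatments, 7 of the 10 genes were higher in NeuN+ nuclei and none was lower at FDR below 0.25, where 16.8% of all 40714 genes tested were higher and 20.4% lower. The median log2 fold change of the 10 genes was 1.52, against -0.47 for all genes. The largest differences were those of Fibcd1 (2.83 ± 0.40, SE, FDR 0.00017), C1ql2 (2.62 ± 0.40, FDR 0.00031) and Calb1 (2.46 ± 0.40, FDR 0.00048). Iyd, Cpne4, Wfs1 and Dsp followed, at 1.90 ± 0.47, 1.76 ± 0.36, 1.27 ± 0.36 and 0.95 ± 0.39, and Dsp had the weakest support (FDR 0.12). For C1ql2, Fibcd1, Iyd and Cpne4, every NeuN+ library lay above every NeuN- library, as for 8.92% of all genes.

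The other 3 markers were not called in either direction. Prox1 had 163, 149 and 153 CPM in sham neurons (replicates 1, 2 and 3) and 147, 167 and 145 CPM in kainate neurons. In glia it had 207 and 81.8 CPM in sham (replicates 1 and 3) and 254, 232 and 133 CPM after kainate. The neuronal libraries lay close together, and the glial ones spread on both sides of them (log2 fold change -0.17 ± 0.29, FDR 0.71, and called lower in NeuN+ nuclei at -0.46, FDR 0.20, without kainate glia replicate 3). Calb2, with 17.3, 7.03 and 5.54 CPM in sham neurons and 15.7 and 5.06 CPM in sham glia, and Pou3f1, with 92.7, 47.3 and 34.6 CPM in sham neurons and 83.0 and 22.1 CPM in sham glia, followed the replicate number more than the fraction. Their log2 fold changes were 0.01 ± 0.43 (FDR 0.99) and -0.02 ± 0.38 (FDR 0.97), and Pou3f1 was called higher at 0.63 (FDR 0.20) without sham glia replicate 1. The summed level of the 5 neuronal markers was 455 to 734 CPM in glia and 2870 to 7050 CPM in neurons. On replicates 2 and 3 alone, Prox1 (log2 fold change 0.45, FDR 0.19) and Pou3f1 (0.44, FDR 0.19) were also higher in NeuN+ nuclei, for 9 of 10 genes in all, against 25.7% of all genes. An antisense gene, Prox1os, overlaps exons of Prox1 and had 1.04 to 3.88% as many counts, and another, Gm2164, overlaps Pou3f1 with 0.74 to 9.96%. Whether the counting used strand is not stated, so reads of these pairs cannot be told apart.

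**Figure D2:**
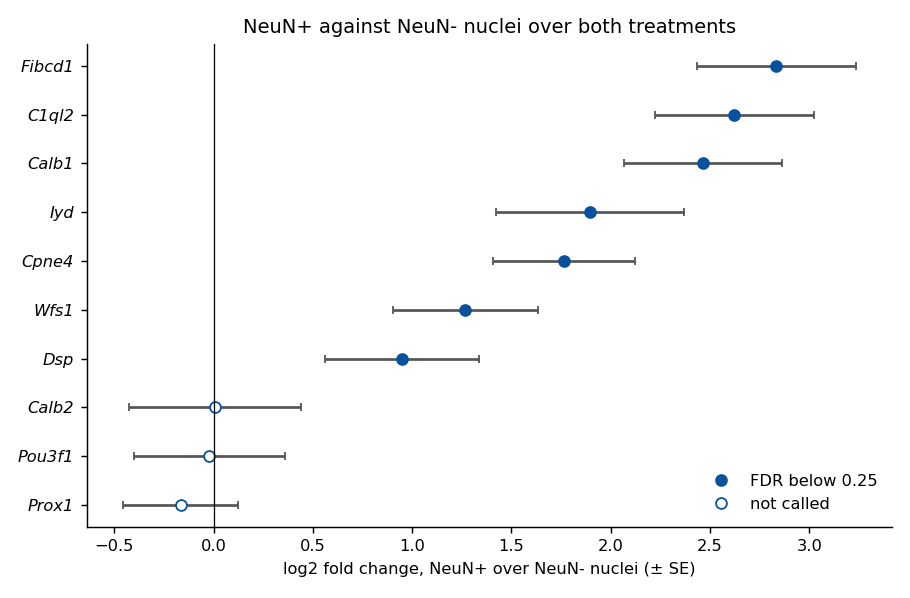
Log2 fold change of NeuN+ over NeuN- nuclei (± SE) for the 10 genes over both treatments, from edgeR. The 7 filled points, from Dsp at 0.95 to Fibcd1 at 2.83, passed FDR below 0.25, and the 3 open points lay near 0.

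Kainate was compared with sham first in neurons. No subfield marker passed FDR below 0.25 in the fit without replicate numbers (FDR 1.00 for each), where 0.157% of all genes were higher and 0.00737% lower. None had an unadjusted p below 0.05 with edgeR, against 2.09% of all genes, and DESeq2 called none (1 had an unadjusted p below 0.05), where it called 0.884% of all genes in either direction. The 10 genes lay mostly below 0 all the same. Their median log2 fold change was -0.51, with 8 of 10 negative, while the median of all genes was -0.01, with 51.4% negative. Libraries of one replicate number deviated together, though only weakly for replicate 2, and a pairing of kainate with sham pools is not stated. The replicate number was also fitted as a block. In that fit 4 of the 10 genes fell (Calb1, Dsp, C1ql2 and Fibcd1) and none rose, where 1.90% of all genes fell and 3.19% rose.

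Calb1 differed most in that fit. It had 198, 104 and 88.0 CPM in sham neurons (replicates 1, 2 and 3) and 112, 62.6 and 22.5 CPM in kainate neurons. Each kainate library was below the sham library of its number, though the groups overlapped. The log2 fold change was -0.99 ± 0.49 (SE, unadjusted p 0.063) without the block and -1.16 ± 0.20 with it (FDR 7.1e-05). Dsp had 16.05, 27.5 and 21.5 CPM in sham and 12.3, 10.8 and 9.05 CPM in kainate neurons. It was the only one of the 10 genes whose groups did not overlap, against 7.86% of all genes, and its log2 fold change was -1.02 ± 0.51 (unadjusted p 0.066) and -1.005 ± 0.26 with the block (FDR 0.013).

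C1ql2 had 416, 172 and 163 CPM in sham neurons and 223, 156 and 69.5 CPM in kainate neurons. The drop was small in the second pair and larger in the others, and the log2 fold change was -0.74 ± 0.48 and, with the block, -0.76 ± 0.19 (FDR 0.012). Prox1, the remaining dentate marker, was within its spread, at -0.02 ± 0.39 without and -0.02 ± 0.18 with the block (FDR 1.00). Among the CA1 markers, Fibcd1 had 239, 128 and 119 CPM in sham and 181, 103 and 46.3 CPM in kainate neurons. It was lower in 3 of 3 pairs, at -0.56 ± 0.48 and -0.69 ± 0.20 with the block (FDR 0.036). Wfs1 had 168, 75.9 and 63.8 CPM in sham and 185, 92.1 and 80.3 CPM in kainate neurons. Pou3f1 had 93.7, 65.5 and 45.9 CPM in kainate neurons. Wfs1 and Pou3f1 were slightly higher in 3 of 3 pairs, but neither passed, at 0.25 ± 0.18 (FDR 0.87) and 0.30 ± 0.19 (FDR 0.80) with the block.

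The CA2 and CA3 markers and the mossy cell marker were not called. Iyd, with 6.45, 3.24 and 3.64 CPM in sham and 4.05, 1.38 and 1.71 CPM in kainate neurons, was lower in every pair, at -0.996 ± 0.40 with the block (FDR 0.30). Cpne4 had 40.9, 17.8 and 17.4 CPM in sham and 28.2, 18.0 and 9.14 CPM in kainate neurons, at -0.48 ± 0.24 with the block (FDR 0.59). Calb2 had 13.4, 9.38 and 4.91 CPM in kainate neurons, close to its sham levels, at -0.04 ± 0.27 with the block (FDR 1.00). In all, 5 of 10 genes were lower in 3 of 3 pairs, as were 13.1% of all genes.

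Without the block, the log2 fold changes depended on single libraries. Without sham neurons replicate 1 they were -0.55 for Calb1, -0.16 for C1ql2, -0.17 for Fibcd1 and -0.54 for Iyd, and without kainate neurons replicate 1 they were -1.61, -1.15, -1.12 and -1.52. Without kainate neurons replicate 3 they were -0.58 for Calb1, -0.40 for C1ql2 and -0.19 for Fibcd1. Dsp moved less, from -1.19 to -0.81. The calls with the block needed the libraries of replicate 3. With the block on replicates 1 and 2 alone, none of the 10 genes was called, and the log2 fold changes were -0.82 for Calb1, -0.92 for Dsp, -0.56 for C1ql2 and -0.40 for Fibcd1. In that fit 0.379% of all genes fell at FDR below 0.25. An unadjusted p below 0.05 was found for 4 of the 10 genes, and the share of all genes at that threshold is not given here. On replicates 1 and 3, and on replicates 2 and 3, the same 4 genes fell together with Cpne4 and Iyd, respectively, for 5 of 10 in each, while 4.03% and 1.80% of all genes fell. On replicates 2 and 3 without the block, Dsp (-1.38, FDR 0.014) and Calb1 (-1.25, FDR 0.052) fell, against 0.863% of all genes. The summed level of the 5 astrocyte markers was 152 to 213 CPM in sham and 212 to 284 CPM in kainate neurons, and that of the 5 microglia markers was 25.1 to 29.0 and 31.9 to 49.1 CPM. Their part in the result was not tested. The 5 neuronal markers summed to 3612 to 7050 CPM in sham and 2870 to 5914 CPM in kainate neurons, which overlapped.

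**Figure D3:**
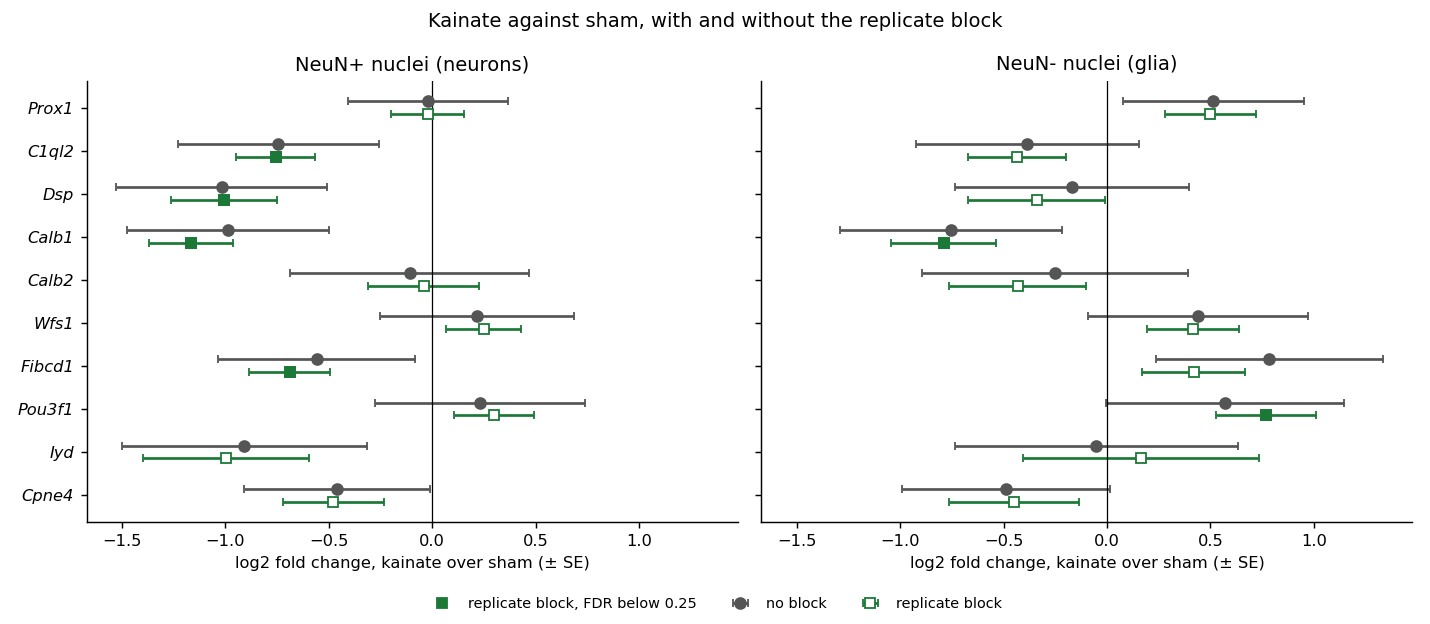
Log2 fold change of kainate over sham (± SE) in neurons and glia for the 10 genes, without the block (grey circles) and with the replicate number as a block (squares, filled where FDR was below 0.25). The errors were smaller with the block for each gene, the estimate of Fibcd1 in glia moved from 0.78 to 0.42, and Calb1, Dsp, C1ql2 and Fibcd1 in neurons and Calb1 and Pou3f1 in glia passed with it and not without it.

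The sequences before the start sites of 3 of the 4 genes that fell in neurons with the block are shown, and no window was used here for Calb1. Each line gives the 250 bases upstream of the RefSeq gene start on GRCm38.p6, 5′ to 3′ on the strand of the gene, with capitals at the CRE half-site TGACG or its reverse complement. The windows are C1ql2 at chr1:120340332-120340581 (plus), Dsp at chr13:38151044-38151293 (plus) and Fibcd1 at chr2:31846006-31846255 (minus).
C1ql2: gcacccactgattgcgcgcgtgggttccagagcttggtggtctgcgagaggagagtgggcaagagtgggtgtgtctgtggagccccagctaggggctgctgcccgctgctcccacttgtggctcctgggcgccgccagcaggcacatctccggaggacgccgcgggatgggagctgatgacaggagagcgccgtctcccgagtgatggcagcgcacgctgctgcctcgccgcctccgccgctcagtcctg
Dsp: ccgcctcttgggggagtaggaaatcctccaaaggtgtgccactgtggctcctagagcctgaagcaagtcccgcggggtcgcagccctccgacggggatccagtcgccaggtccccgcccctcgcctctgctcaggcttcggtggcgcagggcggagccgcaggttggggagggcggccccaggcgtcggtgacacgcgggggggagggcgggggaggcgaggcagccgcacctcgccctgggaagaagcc
Fibcd1: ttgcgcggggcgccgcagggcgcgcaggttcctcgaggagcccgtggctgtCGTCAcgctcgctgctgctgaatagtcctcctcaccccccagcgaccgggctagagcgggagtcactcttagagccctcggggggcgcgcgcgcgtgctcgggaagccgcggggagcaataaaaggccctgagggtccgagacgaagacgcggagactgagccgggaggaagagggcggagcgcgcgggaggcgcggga
All were rich in G and C, at 68.8%, 72.4% and 71.6%, against a median of 52.4% over 32851 such windows. The motifs of activity-dependent factors below were searched on both strands. The AP-1 site TGANTCA was in 6.75% of all windows, the CRE TGACGTCA in 1.55% and the CRE half-site TGACG, which the CRE contains, in 17.8%. Of the 9 windows of 7 markers in the table, none held the AP-1 site or the CRE, and 2 held the half-site (Fibcd1 and Iyd). A match is a description of the letters only.

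In glia, the fit without replicate numbers called none of the 10 genes (FDR 1.00 for each), where 0.0933% of all genes were higher and 0.00737% lower. None had an unadjusted p below 0.05, against 2.05% of all genes, and DESeq2 called none of the 9 genes to which it gave an FDR, where it called 0.624% of all genes. The median log2 fold change was -0.11, with 6 of 10 negative, against 0.02 for all genes. With the block, Calb1 fell and Pou3f1 rose, where 2.86% of all genes fell and 2.93% rose. Kainate glia replicate 2 has no sham partner, so this fit rests on replicates 1 and 3.

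Calb1 had 23.0 and 20.5 CPM in sham glia (replicates 1 and 3) and 13.4, 13.5 and 11.7 CPM in kainate glia (replicates 1, 2 and 3). The groups did not overlap, and the log2 fold change was -0.75 ± 0.54 without and -0.79 ± 0.25 with the block (FDR 0.090). In sham, the neurons of the same pool were higher than the glia by 3.11 and 2.10 on the log2 scale (replicates 1 and 3). Pou3f1 had 83.0 and 22.1 CPM in sham and 102, 79.6 and 52.8 CPM in kainate glia. Its log2 fold change was 0.57 ± 0.58 without and 0.77 ± 0.24 with the block (FDR 0.076), and the replicates differed more than the treatments. Without the block, and with a lone sham glia library assumed to vary like the other groups, the value of Pou3f1 was 1.85 without sham glia replicate 1, -0.098 without sham glia replicate 3 and 0.20 without kainate glia replicate 1.

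Fibcd1 and Cpne4 were the other genes in glia whose groups did not overlap, for 3 of 10 with Calb1, against 8.22% of all genes. Fibcd1 had 12.7 and 15.8 CPM in sham and 20.4, 35.5 and 17.8 CPM in kainate glia, at 0.78 ± 0.55 and, with the block, 0.42 ± 0.25 (FDR 0.66). The highest value was that of the library of low input, without which the value of the fit without the block was 0.42. Cpne4 had 9.01 and 6.05 CPM in sham and 5.21, 5.33 and 5.54 CPM in kainate glia, at -0.49 ± 0.50 and -0.45 ± 0.32 with the block (FDR 0.78). These differences were not called. C1ql2 had 46.6 and 25.2 CPM in sham and 30.3, 31.0 and 21.2 CPM in kainate glia. Dsp had 4.28 and 12.4 CPM in sham and 2.70, 7.87 and 11.7 CPM in kainate glia, lowest in replicate 1 of both groups. Wfs1 had 50.5 and 28.3 CPM in sham and 72.7, 52.9 and 35.0 CPM in kainate glia, and Calb2 had 9.91, 11.8 and 4.44 CPM in kainate glia. Iyd, the lowest of the 10 genes in each glial library, had 1.02 and 0.74 CPM in sham and 0.69, 0.58 and 1.26 CPM in kainate glia. The groups of these genes and of Prox1 overlapped, and none of them was called, with log2 fold changes from -0.44 to 0.50 with the block. In all, 5 of 10 genes were lower in 2 of 2 pairs, as were 23.4% of all genes. On replicates 1 and 2 with the block, none of the 10 genes was called in glia (none with an unadjusted p below 0.05), where 4.70% of all genes were called in either direction. On replicates 2 and 3 with the block, Pou3f1 rose (1.26, FDR 0.17) and Calb1 did not pass (-0.79, FDR 1.00), while 0.890% of all genes rose. Each of these fits rests on 1 pair. On replicates 1 and 3, without the unpaired library, Prox1 (0.50, FDR 0.11) rose beside Pou3f1 and Calb1 fell, while 4.98% of all genes rose and 5.13% fell. On replicates 2 and 3 without the block, Pou3f1 was the 1 gene called (1.60, FDR 0.11), against 0.954% of all genes higher, but there sham glia is a single library, which is assumed to vary like the libraries of the other groups. The 5 oligodendrocyte markers summed to 8319 and 36814 CPM in sham glia and to 4631 to 25861 CPM in kainate glia. With the block, 3 of 5 oligodendrocyte markers, 3 of 3 markers of their precursors, 3 of 5 astrocyte markers and 2 of 5 microglia markers fell in glia, while 2.86% of all genes fell. The 5 choroid plexus markers summed to 22.8 and 25.6 CPM in sham and 30.3 to 102 CPM in kainate glia, which did not overlap, and 2 of the 5 rose with the block (Kl and Ttr), while 2.93% of all genes rose. Kl, unlike the other 4, was higher in NeuN+ than in NeuN- nuclei (1.90 ± 0.30, FDR 0.00040). It also rose in neurons with the block, so it is not a clean marker of choroid plexus here. For all these markers, their part in the result was not tested.

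The kainate effect in neurons was then compared with that in glia by the difference of their log2 fold changes. The fits of this difference treat the neuronal and glial libraries of one pool as independent. Their deviations from the group means correlated at 0.42 to 0.69, and a fit that pairs them was not run for this comparison. No gene of the 10 passed without the block (FDR 1.00 for each), where 0.00246% of all genes passed in either direction, and none had an unadjusted p below 0.05, against 0.909% of all genes. DESeq2 called none of the 9 genes to which it gave an FDR, where it called 0.0761% of all genes. With the block, Fibcd1 passed, with a log2 fold change lower by 1.11 ± 0.32 in neurons than in glia (difference -1.11, FDR 0.089), where 0.702% of all genes were lower. For Calb1 the difference was -0.37 ± 0.32 (FDR 1.00), so the fall in neurons and that in glia were not told apart. Fibcd1 did not pass with the block on replicates 1 and 2 (-1.08, FDR 0.49) or on replicates 2 and 3 (-1.10, FDR 1.00), where 1.66% and 0.124% of all genes were lower, and it passed on replicates 1 and 3 (-1.29, FDR 0.00063), where 1.37% were lower.

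Within a library, the ratio of dentate to CA1 markers does not depend on the scaling. It was taken as the mean log2 CPM of Prox1, C1ql2, Dsp and Calb1 minus that of Wfs1, Fibcd1 and Pou3f1, as a description without a test. In sham neurons it was -0.35, 0.26 and 0.37 (replicates 1, 2 and 3), and in kainate neurons it was -0.84, -0.40 and -0.55. In sham glia it was -0.27 and 0.33 (replicates 1 and 3), and in kainate glia it was -1.21, -0.84 and -0.36. In both fractions every kainate library was below every sham library, although the gap between the nearest libraries was small. The fractions come from the same pools, so they are not independent. In glia the score is less clearly a ratio of subfields, since Prox1 and Pou3f1 were not called between the fractions. There Prox1, Wfs1, Fibcd1 and Pou3f1 were higher after kainate in 2 of 2 pairs, and C1ql2, Dsp and Calb1 were lower in 2 of 2.

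**Figure D4:**
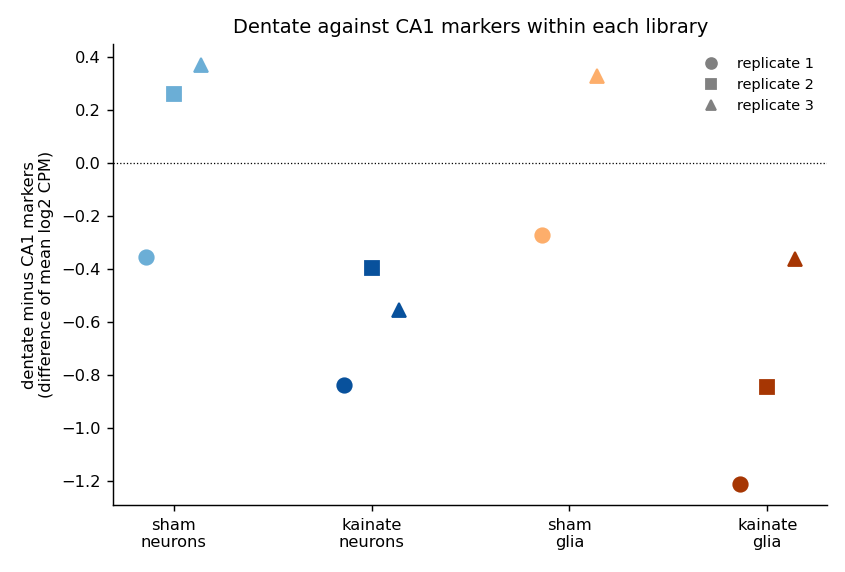
Mean log2 CPM of 4 dentate markers minus that of 3 CA1 markers in each of the 11 libraries, by group, with a symbol for each replicate number. Kainate neurons lay between -0.84 and -0.40 and sham neurons between -0.35 and 0.37, and in glia the kainate libraries were also below the sham libraries. Neurons and glia of one treatment and number come from the same pool.

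Further markers of the same fields were read from lists written from general knowledge. Of 10 other dentate granule cell genes, none was called in neurons in the edgeR fit of all 11 libraries without the block. An unadjusted p below 0.05 was found for 5 of them, against 2.09% of all genes, and the median log2 fold change of the 10 was -1.004. In a separate fit of the neuronal libraries, also without the block, Lct, Plk5, Stxbp6 and Trpc6 fell (FDR 0.019 to 0.091). The share of all genes that fell in that fit is not given here, so the count has no background. With the block, 6 of 10 fell and none rose, against 1.90% of all genes falling. Plk5, a polo-like kinase of neurons, had the smallest p, with 105, 79.9 and 79.2 CPM in sham and 22.9, 13.7 and 4.37 CPM in kainate neurons. The groups did not overlap, at -2.69 ± 0.64 (FDR 0.33) and, with the block, -2.93 ± 0.28 (FDR 1.8e-11). Lct (-1.98 ± 0.24, FDR 2.4e-08), Tdo2 (-2.10 ± 0.31, FDR 1.8e-06), Trpc6 (-1.33 ± 0.19, FDR 1.8e-06), Stxbp6 (-1.64 ± 0.21, FDR 1.6e-07) and Dock10 (-0.65 ± 0.18, FDR 0.023) were the others. Plk5 and Stxbp6 are also genes that the study names from these samples, so their direction is not independent evidence. In glia with the block, Plk5 (-1.49 ± 0.35, FDR 0.0057) and Stxbp6 (-0.88 ± 0.26, FDR 0.042) fell and Glis3, a zinc finger transcription factor, rose (1.64 ± 0.25, FDR 7.4e-06).

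Of the 5 genes of immature granule cells, none was called in neurons in the fit of all 11 libraries without the block, and with it Sox11 rose and Neurod1 fell, while 3.19% of all genes rose and 1.90% fell. Sox11, a transcription factor of newborn neurons, had 79.7, 31.9 and 41.9 CPM in sham and 190, 147 and 101 CPM in kainate neurons. Its groups did not overlap, at 1.51 ± 0.43 (FDR 0.66) and 1.57 ± 0.21 with the block (FDR 2.7e-07). It also rose without the block in the separate fit of neurons (1.52, FDR 0.12) and on replicates 2 and 3 (1.67, FDR 0.0012). Neurod1 was at -0.86 ± 0.25 with the block (FDR 0.041).

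In the lists of the pyramidal fields, at most 2 genes of a list were called with the block in a fraction. With the block, 3.19% of all genes rose and 1.90% fell in neurons, and 2.93% rose and 2.86% fell in glia. Of 6 other CA1 genes, 1 fell in neurons with the block, Ndst4, a heparan sulfate-modifying enzyme, with 47.4, 29.5 and 38.0 CPM in sham and 29.0, 16.4 and 15.0 CPM in kainate neurons (-0.97 ± 0.23, FDR 0.0055). The median log2 fold change of the list was -0.0038 without the block. The 9 genes on the CA2 list had a median log2 fold change of -0.078 in neurons without the block. Of these, Ntf3 (neurotrophin-3) fell with the block in neurons (-1.88 ± 0.31, FDR 2.8e-05) and in glia (-1.15 ± 0.44, FDR 0.22). Also in glia, Cacng5, an auxiliary protein of AMPA receptors, rose with the block, from 21.3 and 15.0 CPM in sham to 81.1, 67.1 and 37.4 CPM (1.63 ± 0.26, FDR 2.0e-05). Of 8 CA3 genes, Grik4, a kainate receptor subunit, rose in neurons with the block, from 141, 116 and 119 to 160, 186 and 221 CPM (0.59 ± 0.20, FDR 0.11). Of 5 mossy cell genes, none was called in either fraction with or without the block when all libraries were fitted. Csf2rb2, the one with the smallest p, had 7.35 and 9.67 CPM in sham and 13.7, 14.3 and 13.2 CPM in kainate glia (0.67 ± 0.33 with the block, FDR 0.49). Of 9 interneuron genes, Gad1 and Gad2, the enzymes of GABA synthesis, rose in neurons with the block (0.61 ± 0.18, FDR 0.051, and 0.60 ± 0.19, FDR 0.099). Gad1 also rose in glia, from 42.6 and 25.8 CPM to 65.7, 64.0 and 55.6 CPM (0.87 ± 0.23, FDR 0.019), where Reln, the extracellular protein reelin, fell (-0.67 ± 0.22, FDR 0.090). The calls of the list genes with the block also depended on the pairs. With the block on replicates 1 and 2, Plk5, Lct, Tdo2, Trpc6, Stxbp6, Ntf3 and Sox11 were called in neurons in the same direction, while Dock10 (FDR 0.83), Ndst4 (FDR 0.79), Neurod1, Grik4, Gad1 and Gad2 (FDR 1.00 for each) were not. Gad1 in neurons was also not called on replicates 2 and 3 (FDR 0.27). In glia, Cacng5 and Glis3 were called on replicates 1 and 3 (1.63 for each). The other sets hold 1 sham glia library each, so they are not further replications. On replicates 1 and 2, and on 2 and 3, Cacng5 was at 1.94 and 1.33 and Glis3 at 2.01 and 1.31. Gad1, Reln and Stxbp6 in glia were called on replicates 1 and 3 and on neither other set. Plk5 in glia was not called on replicates 1 and 2 (-0.63), nor Ntf3 on replicates 2 and 3 (-0.56). In the edgeR fit of all 11 libraries without the block and with the standard filter, none of the genes of these lists was called in either fraction. With no filter and with a CPM filter Plk5, and with the latter also Stxbp6, was called lower in neurons (FDR 0.21 for each), and DESeq2 called Plk5, Lct, Tdo2, Stxbp6 and Ntf3 lower and Sox11 higher in neurons (FDR 0.0033 to 0.20), and Cacng5 higher in glia (FDR 0.15).

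The genes whose profile over the 11 libraries was most like that of a marker were found by the root mean square difference of log2 CPM, after each gene's mean was subtracted, among 24721 genes. For Prox1 they were Polr2a, Fgf22 and Stox2 (0.10, 0.13 and 0.14, where the SD of Prox1 itself was 0.42). For Wfs1 they were Timm9, Rnf126 and Ddx24 (0.16, 0.17 and 0.17, SD 0.79). For Calb2 they were E330037G11Rik, Asb8 and Gm13803 (0.17, 0.21 and 0.22, SD 0.64), and for Cpne4 they were Gm37181, Fndc5 and Ajm1 (0.14, 0.18 and 0.19, SD 0.96). None of these is among the subfield marker lists.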

How the data were processed

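The deposited values are raw counts per gene that the authors made with Trim Galore 0.4.3, Rsubread and featureCounts (GENCODE M16, mm10); a version of the aligner is not given in the sources used here. The table holds 11 mRNA libraries, and the 11 bisulfite samples were not used. The 105 genes without a symbol were left out, filterByExpr (minimum count 10, total 15) kept 40714 genes, and edgeR 4.0.16 (R 4.3.3, TMM, quasi-likelihood test, 7 residual degrees of freedom) was fitted to 4 group means, with Benjamini-Hochberg adjustment over all genes and calls at FDR below 0.25. DESeq2 1.42.0 was an alternative. The number of pools limits the precision, and p-values cover the spread between pools. The fits were tested on simulated data, which were drawn without a replicate effect. That test therefore does not show how the block fit behaves with the shared deviations seen here. Library totals were 12058875 to 45428465.

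Replicate numbers come from the sample titles. Over genes with a mean CPM of at least 1, deviations from the group means of kainate and sham libraries of one number correlated at 0.20 to 0.87 (lowest for neurons of replicate 2), and those of different numbers at -0.87 to 0.55. Since each pair of one number was above 0.1, the numbers were taken to pair the samples. The sources used here do not say that kainate and sham pools of one number belong together. Deviations within a group cancel each other, so those of different numbers tend to have opposite signs. For replicate 2 the pairing is weak, as sham neurons 2 correlated at 0.20 with kainate neurons 2 and at 0.55 with kainate neurons 3. The block fit has 3 residual degrees of freedom and 48.0 prior ones, so its errors borrow mostly from other genes. The sequencing platform of a library is not given in the sources used here. One label names the right hippocampus; titles and methods name the left.

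Exon lengths and coordinates are from GENCODE M21, promoters from RefSeq. The members and lists were chosen with earlier results of these data known. Beyond the members, the rule named from each subfield list the called genes or, with none, the gene with the smallest p, and for 4 members the 3 most similar profiles (pseudocount 0.5). Other genes were named after their values were seen.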

Additional observations from a re-analysis of the deposited data

Results flagged for a closer look

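Fibcd1 was picked out because its kainate effect differed between neurons and glia in the fit with the replicate number as a block (difference of log2 fold changes, neurons minus glia, -1.11 ± 0.32, SE, FDR 0.089, edgeR). In neurons Fibcd1 was lower after kainate in 3 of 3 pairs, and in glia it was higher in 2 of 2 pairs. Without the block the difference was not called (FDR 1.00). Both fits treat the neurons and glia of one pool as independent. The groups of 2 or 3 libraries are too small for the test of single outlying samples.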

How the results depend on the processing

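The replicate numbers were taken to pair the samples, and fitting them as a block changed the calls. The subfield markers called rose from 0 to 4 in neurons, from 0 to 2 in glia and from 0 to 1 for the difference between them, and over all genes in neurons 64 higher and 3 lower became 1299 and 773 (in glia 38 and 3 became 1194 and 1163). DESeq2 called 360 genes in neurons and 254 in glia, none of them one of the 10 subfield markers. Genes of the subfield lists were called in neurons by edgeR without the block in the separate fit (Lct, Plk5, Stxbp6 and Trpc6 lower, Sox11 higher, FDR 0.019 to 0.12), with no filter on low counts (Plk5, FDR 0.21), with the CPM filter (Plk5 and Stxbp6, FDR 0.21) and on replicates 2 and 3 (8 lower, 1 higher, FDR 2.9e-10 to 0.090). With 1 library left out they were Plk5 without sham or kainate glia replicate 1 or 3 (FDR 0.12 to 0.17), Lct without either sham glia library (FDR 0.18), Stxbp6 without kainate glia replicate 3 (FDR 0.17) and Tdo2 without kainate neurons replicate 1 (FDR 0.17). In glia they were Plk5 and Cacng5 on replicates 2 and 3 (FDR 0.017 and 0.033) and Glis3, Plagl1 and Calcrl without sham glia replicate 3 (FDR 0.23, 0.24 and 0.25). Each of these glial fits has 1 sham library, which is assumed to vary like the other groups. For the separate fit, the other filters and the fits with 1 library left out, the shares of all genes called are not given here. For the 10 subfield markers, the separate fit of each cell type kept its count of kainate calls at 0, and the other tools, filters, scalings and single libraries left out, and the threshold of 0.05, kept the counts in neurons, in glia and for the difference at 0. For NeuN+ against NeuN- nuclei the count of 7 ranged from 6 to 9, and the pool as a block kept it at 7. Dsp (0.95) was lost at FDR below 0.05 and with low input as a covariate (0.76, FDR 0.28).

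The fits on fewer replicate numbers were added after the data were seen. Replicates 2 and 3 alone gave 2 called markers in neurons, 1 in glia (against 1 sham library) and 0 for the difference. With the block, replicates 2 and 3 gave 5, 1 and 0, replicates 1 and 3 gave 5, 3 and 1, and replicates 1 and 2 gave 0 in each.

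The log2 fold changes that changed sign belonged to values not called in the fit without the block. For NeuN+ against NeuN- nuclei, without both low-input libraries, with low input as a covariate and on replicates 2 and 3, Prox1 was at 0.32, 0.19 and 0.45 and Pou3f1 at 0.64, 0.42 and 0.44 (0.10 with the pool as a block). Calb2 was there at -0.063 with DESeq2 size factors, -0.062 with DESeq2, -0.055 with no filter on low counts and -0.081 with a minimum CPM. In glia, without both low-input libraries and on replicates 2 and 3, C1ql2 was at 0.051 and 0.064, Calb2 at 0.52 and 0.70 (0.10 with the covariate) and Iyd at 0.43 and 0.33. Iyd in glia was at 0.16 with the block, and also on replicates 1 and 3, and at 0.77 on replicates 2 and 3 with it. Calb2 in neurons was at 0.12 on replicates 2 and 3 and at 0.053 with the block on these.

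With 1 library left out at a time, the values in neurons ranged from -1.61 to -0.55 for Calb1, from -1.15 to -0.16 for C1ql2, from -1.12 to -0.17 for Fibcd1, from -1.19 to -0.81 for Dsp, from -1.52 to -0.54 for Iyd, from -0.089 to 0.019 for Prox1, from -0.47 to 0.55 for Calb2, from -0.25 to 0.77 for Wfs1, from -0.062 to 0.74 for Pou3f1 and from -0.90 to 0.064 for Cpne4. In glia they ranged from -0.012 to 1.36 for Prox1, from -0.77 to 0.15 for C1ql2, from -0.89 to 0.78 for Dsp, from -0.86 to 0.81 for Calb2, from -0.10 to 1.85 for Pou3f1 and from -0.62 to 0.21 for Iyd. For NeuN+ against NeuN- nuclei they ranged from -0.46 to 0.27 for Prox1, which was called lower without kainate glia replicate 3 (-0.46, FDR 0.20), from -0.34 to 0.55 for Calb2 and from -0.35 to 0.63 for Pou3f1, which was called higher without sham glia replicate 1 (0.63, FDR 0.20). The difference for Calb1 ranged from -0.86 to 0.21. The causes were not tested. Of the group means of the markers, 6 of 40 moved by more than 1 SD with scaling by total counts, 5 of 40 over genes without Gm or Rik names and 0 of 40 with DESeq2 size factors.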
